A study of Mus musculus with 8 samples.

Results

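The S100 genes encode small calcium-binding proteins, and 10 of them were followed here by name in 8 mouse brain RNA-seq libraries: S100a1, S100a4, S100a6, S100a8, S100a9, S100a10, S100a11, S100a13, S100a16 and S100b. They are 10 of the 54532 genes listed in the count table of the first experiment and 10 of the 28229 listed in that of the second, and were matched by gene name. The 10 names were chosen with earlier results of these data known. The first experiment compared 2 libraries of PTS + RS mice with 2 of RS mice, all labelled cortex. PTS is photothrombotic stroke, in which light on the skull over an injected dye closes the vessels of the cortex below, and RS is restraint stress, which both groups received. The second experiment compared 2 libraries of PTS + RS mice given RGFP109 with 2 of PTS + RS mice given vehicle. RGFP109 is an inhibitor that the study directs at the histone deacetylase HDAC3 and describes as selective for HDAC1 and HDAC3. RGFP109 was injected under the skin once a day at 60 mg/kg, for 2 weeks by the labels and by the methods of the study. The labels name the vehicle NaCl. A longer course of injections, which runs past Day 21, also appears in the study, and which course these mice had is uncertain. In both groups of the second experiment, replicate 1 is labelled cortex and replicate 2 amygdala. The mice were male C57BL/6, and all libraries are from Day 21. An age was found for the mice of a behavioural test of the study, not for those of these libraries. The sources do not say whether a library is 1 mouse or several, so the p-values measure the spread between libraries, which may be technical.

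An S100 protein holds calcium with paired EF-hand motifs, works mostly as a dimer, and changes shape when calcium binds so that it can grip a target protein. Inside cells the targets include annexins, cytoskeletal proteins and enzymes. Some members are also released and bind receptors such as RAGE and TLR4, which is why S100A8, S100A9 and S100B are often measured as signs of inflammation or brain injury. In brain, S100B is best known from astrocytes and some oligodendrocytes, S100A8 and S100A9 from neutrophils and monocytes, and S100A4, S100A6, S100A10 and S100A11 from reactive glia, macrophages, vessels and meninges.

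The deposited coordinates of all 10 genes matched the GENCODE M21 annotation of GRCm38. S100b lies alone on chromosome 10 (chr10:76253853-76261159). The other 9 lie on chromosome 3 in separate blocks, from S100a1 to S100a9 over 184.7 kb and from S100a11 to S100a10 over 44.2 kb, with 2824.8 kb between S100a9 and S100a11. S100a1 and S100a13 read away from each other with 42 bases between them. A RefSeq promoter window (GRCm38.p6, 250 bases before to 50 after the start) was at hand for 9 of the 10 genes, all but S100a10. The bases upstream of the annotated genes are shown for S100a6, S100a11 and S100b, and for the gap that S100a1 and S100a13 share. Those 3 members had the largest log2 fold changes in the first experiment. All are printed 5′ to 3′ on the plus strand, and capitals mark the letters TGAGTCA.
S100a1-S100a13 gap, chr3:90514393-90514434: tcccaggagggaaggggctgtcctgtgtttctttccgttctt
S100a6 upstream, chr3:90612644-90612881: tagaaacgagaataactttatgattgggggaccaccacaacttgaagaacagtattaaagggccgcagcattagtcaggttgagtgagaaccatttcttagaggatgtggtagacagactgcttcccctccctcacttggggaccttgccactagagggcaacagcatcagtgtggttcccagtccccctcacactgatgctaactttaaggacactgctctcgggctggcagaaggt
S100a11 upstream, chr3:93520246-93520487: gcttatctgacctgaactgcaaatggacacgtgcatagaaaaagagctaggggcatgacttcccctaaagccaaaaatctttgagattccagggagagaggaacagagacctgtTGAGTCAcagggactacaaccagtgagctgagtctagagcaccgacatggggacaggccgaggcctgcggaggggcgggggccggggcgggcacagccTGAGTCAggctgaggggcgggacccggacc
S100b upstream, chr10:76253586-76253835: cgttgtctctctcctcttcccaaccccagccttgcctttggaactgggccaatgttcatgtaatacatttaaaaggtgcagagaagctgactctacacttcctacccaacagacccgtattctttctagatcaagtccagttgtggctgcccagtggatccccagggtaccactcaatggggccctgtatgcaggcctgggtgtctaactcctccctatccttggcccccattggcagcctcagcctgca

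The windows were searched on both strands for 4 motifs, and a match is a description of the letters, not of binding. The AP-1 element TGANTCA, the letters that Fos and Jun dimers read, was present in 7.8% of 32851 promoter windows. S100a11 held it at 2 positions, 136 and 38 bases before the RefSeq start, and S100a16 held it once, 192 bases before one of its starts. The TATA letters TATAAA, present in 13.6% of all windows, were found 31 bases before the start of S100a4 and 30 bases before that of S100a8, and also in the window of S100a9. The STAT element TTCNNNGAA (8.3% of all windows) and the CArG box (1.6%) had no match in a member's window.

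Library totals ran from 15902013 to 21712033 counts, with 3.59 to 4.55% of them from mitochondrial genes. Several libraries stood apart in genes of other brain tissue. CPM are counts scaled to the size of the library. Summed over 10 choroid plexus genes, the level was 51.8 CPM in PTS + RS replicate 2 against 1660 in replicate 1. The RS libraries were at 1871 and 3894 CPM, and all 10 genes had lower fitted levels in PTS + RS. In the second experiment the level was 1542 CPM in RGFP109 replicate 1 against 17.0 to 46.5 in the other 3 libraries. Summed over 10 olfactory bulb genes, it was 2135 CPM in vehicle replicate 1 and 85.2 to 149 in the other 7 libraries. In that library 6 cortical genes summed to 183 CPM, against 327 to 452 elsewhere. In the amygdala-labelled libraries 6 amygdala genes summed to 90.4 and 91.9 CPM, against 143 and 65.3 CPM in the cortex-labelled libraries of the same table and 114 to 131 in the PTS + RS and RS libraries. By contrast, 6 striatal genes summed to 767 and 892 CPM in the amygdala-labelled libraries against 60.0 to 102 elsewhere. The region lists were chosen after the data were seen.

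Levels were compared between members on the FPKM scale, which divides by gene length. S100b was highest, with a mean of 52.2 FPKM over the 8 libraries and a range of 34.5 to 66.4. S100a1, a regulator of calcium release channels in muscle and nerve cells, had a mean of 50.8 FPKM (37.4 to 61.3), so the top 2 overlapped. S100a16, a widely expressed member with weak calcium binding, had a mean of 28.1 FPKM (19.9 to 37.9). Below it came S100a13, which takes part in export of FGF1 and IL-1α, at 13.7 FPKM (11.6 to 16.4), and S100a10, the partner of annexin A2, at 13.6 FPKM (6.85 to 24.1). These neighbours did not differ beyond their spread, nor did S100a11 at 8.20 FPKM (4.19 to 14.5) and S100a6 at 8.10 FPKM (3.95 to 14.1). S100a9, S100a8 and S100a4 had means of 0.453, 0.391 and 0.035 FPKM. The least variable of the 7 well-measured genes was S100a13, whose highest library was 1.41 times its lowest, and the most variable was S100a6, at 3.56 times.

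The first comparison asks what stroke adds to restraint stress. All 7 members with enough counts to test had higher fitted levels in the PTS + RS libraries than in the RS libraries, with log2 fold changes from 0.20 to 1.48. S100a6 and S100a11 rose past the full threshold, which asks for an adjusted p below 0.05 together with a log2 difference of 1 or more. Of the 17581 tested genes, 2.12% passed it upward and 0.091% downward. S100b and S100a1 rose past the adjusted p alone, which makes 4 of 7, where 2.96% of tested genes did so upward and 0.586% downward. At an unadjusted p under 0.05 there were 6 higher members, against 10.3% of tested genes upward and 7.55% downward. In 6 of the 7 genes both PTS + RS libraries lay above both RS libraries, as in 25.7% of all tested genes, and 24.5% were separated in the other direction. The median log2 fold change was 0.64 over the 7 members and -0.002 over all tested genes. More cells of a type and more RNA per cell cannot be told apart in bulk tissue.

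**Figure D1:**
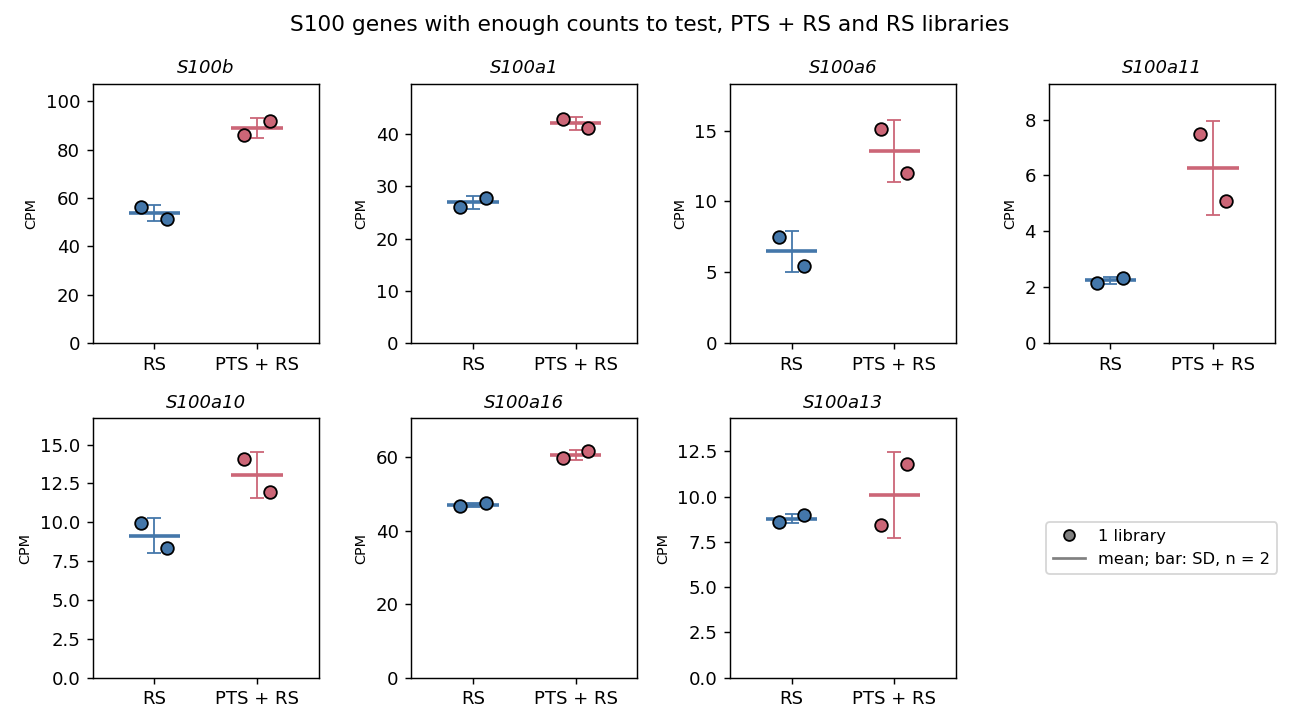
Level of each tested S100 gene in CPM (vertical axis, from 0) in the RS and PTS + RS libraries, with 1 point per library, the mean as a line and the SD (n = 2) as a bar. Both PTS + RS points lie above both RS points in every panel but that of S100a13.

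S100b (ENSMUSG00000033208), the astrocytic member whose protein is measured in blood after brain injury, was at 86.0 and 92.0 CPM in the PTS + RS libraries and at 56.2 and 51.4 CPM in the RS libraries. The groups did not overlap. The log2 fold change was 0.73 (standard error, SE, 0.086, adjusted p = 0.006, edgeR's quasi-likelihood test), a 1.65-fold rise. Its adjusted p stayed under 0.05 in every alternative that was run, with 0.032 as the highest value among those that left out 1 library.

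S100a1 (ENSMUSG00000044080, chr3:90511034-90514392, minus strand) was at 43.0 and 41.2 CPM in the PTS + RS libraries and at 26.1 and 27.8 CPM in the RS libraries. The gap between the groups was far wider than that within either. Its log2 fold change was 0.64 (SE 0.098, adjusted p = 0.017, edgeR), a 1.56-fold rise, though with 1 RS library left out the adjusted p reached up to 0.13. S100a13 (ENSMUSG00000042312, chr3:90514435-90524581), the head-to-head neighbour across the 42-base gap printed above, was at 8.41 and 11.8 CPM against 8.61 and 8.96 CPM. Here the groups overlapped, and the log2 fold change was 0.20 (SE 0.205, adjusted p = 0.67, edgeR), or -0.065 without PTS + RS replicate 2. Whether the neighbours differ in response was not tested.

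S100a6, or calcyclin (ENSMUSG00000001025, chr3:90612882-90624181), is a cytoskeletal and growth-linked member found in reactive astrocytes. It stood at 15.1 and 12.03 CPM in the PTS + RS libraries and at 7.50 and 5.43 CPM in the RS libraries, without overlap. The rise was 2.09-fold, a log2 fold change of 1.06 (SE 0.217, adjusted p = 0.049, edgeR). S100a6 lies at the edge of the threshold: its log2 fold change was 0.89 without PTS + RS replicate 1 and 0.85 without RS replicate 2, below the fold limit. Its adjusted p was 0.20 without RS replicate 2 and 0.055 with limma-voom.

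S100a11, or calgizzarin (ENSMUSG00000027907, chr3:93520488-93526287), binds annexin A1 and takes part in membrane repair. This gene, whose upstream bases hold the TGAGTCA pair, was at 7.47 and 5.09 CPM in the PTS + RS libraries and at 2.15 and 2.33 CPM in the RS libraries. Both stroke libraries lay above both RS libraries, and replicate 1 was the higher of the stroke pair. The log2 fold change of 1.48 (SE 0.278, adjusted p = 0.038, edgeR) was the largest among the members, a 2.80-fold rise. The adjusted p was 0.099 without RS replicate 1, 0.076 without RS replicate 2 and 0.059 with limma-voom, and the log2 fold change lay between 1.18 and 1.73 with 1 library left out.

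S100a16 (ENSMUSG00000074457, chr3:90537254-90543151) was at 59.7 and 61.5 CPM against 46.6 and 47.4 CPM, a difference wider than the spread within either group. With a log2 fold change of 0.37 (SE 0.082, adjusted p = 0.064, edgeR) it did not pass the test. S100a10, or p11 (ENSMUSG00000041959, chr3:93555080-93564643), carries annexin A2 and plasminogen to the cell surface. It was at 14.1 and 11.97 CPM against 9.93 and 8.33 CPM, with a log2 fold change of 0.51 (SE 0.175, adjusted p = 0.19, edgeR). Its groups did not overlap either, yet the difference did not pass.

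S100a8 and S100a9, which pair to form calprotectin, the abundant cytosolic protein of neutrophils, were near or at 0. S100a8 (ENSMUSG00000056054, chr3:90668978-90670035) had 3 and 0 counts in the PTS + RS libraries and 0 and 1 in the RS libraries. S100a9 (ENSMUSG00000056071, chr3:90692632-90695721, minus strand) had 3 and 2 counts against 1 and 0. These are at or under 3 counts, the limit that a count of 0 allows, so no fold is given and a difference was not detectable at this depth. S100a4, a member of motile and mesenchymal cells (ENSMUSG00000001020, chr3:90603771-90606045), had 0 counts in all 4 libraries, which allows up to 0.189 CPM in the shallowest. These limits cover counting error only.

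The value of 0 for S100a4 has a limit in the annotation. Of its 584 exonic bases, 302 (51.7%) are shared on the same strand with Gm42674, a predicted protein-coding gene that was also listed at 0 counts, and 282 are its own. The other 9 members share no exonic bases with another gene on their strand. The counting program used by the authors can leave uncounted a read that overlaps 2 genes, and the mode used is not given in the sources used here, so the part of the overlap in this value was not tested.

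**Figure D2:**
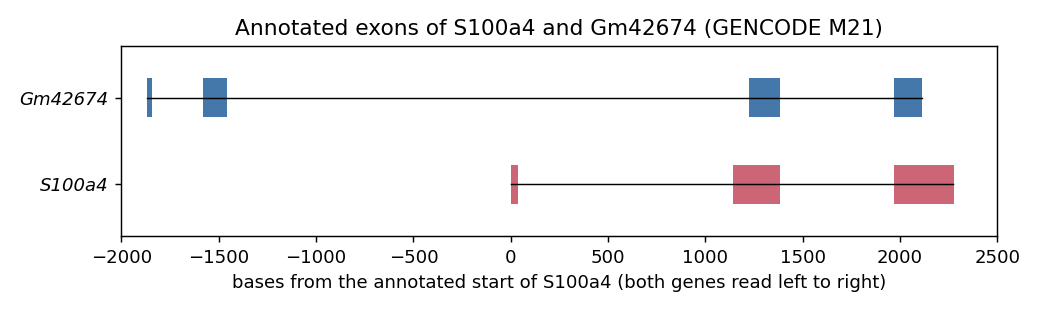
Annotated exons (boxes) of S100a4 and Gm42674 along the distance in bases from the start of S100a4 (horizontal axis), with both genes read from left to right. The later exons of Gm42674 fall within those of S100a4 and make up the 302 shared bases.

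Other genes of the same stretch were examined as well. From S100a1 to S100a10 lie 121 annotated genes, 75 of them protein coding, and only 10 were tested in the first comparison. Of the 4 that are no members, Gm4202, Lor, Tchh and Gm9774, none passed the threshold, and their log2 fold changes were -0.86, -0.85, -0.40 and 0.05.

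Marker genes of several cell types moved with the S100 genes in this comparison. Of 12 microglia genes 11 rose, and their summed level was 1310 to 1534 CPM in the PTS + RS libraries against 321 to 356 in the RS libraries. Csf1r, the receptor on which microglia depend for survival, had a log2 fold change of 1.69. Of 12 macrophage and monocyte genes 9 were tested and 5 rose, with a summed level of 272 to 390 CPM against 79.4 to 84.6. The 5 were Gpnmb, Cd68, Lgals3, Itgax and Ms4a7, and Gpnmb alone was at 183 and 116 CPM against 7.12 and 7.19. Cd63, Mrc1, Cd163 and Pf4 did not pass, and Lyve1, Ccr2 and Ly6c2 had too few counts to test. Which cells carried the 5 that rose was not tested. Of 12 astrocyte genes 3 rose past the full threshold, Gfap, Aqp4 and Vim. The summed level of the 12 was 6961 to 8263 CPM against 4714 to 4756. Slc1a3 and Gja1 passed the adjusted p alone, with log2 fold changes of 0.59 and 0.58. The median log2 fold change of the list was 0.32, with 10 higher and 2 lower fitted levels. The lower ones were Fgfr3 (-0.10) and Slc7a10 (-0.31). The part of these cells in the S100 differences was not tested.

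Of 12 neutrophil genes only 3 were tested, of which Csf3r and Lcn2 rose. Both are made by other cells as well, and the summed level was 43.0 to 53.4 CPM against 10.2 to 11.1. The defining neutrophil genes Ly6g and Elane had no counts, and Ngp, Camp, Ltf, Retnlg and Cxcr2 had at most 3 in a library, as did S100a8 and S100a9. Mmp8 had 4 and 6 counts in the PTS + RS libraries against 0 and 0 in the RS libraries, and Mpo had 2 and 2 against 14 and 4. No gene of the oligodendrocyte, neuron, endothelial, meningeal fibroblast, choroid plexus, olfactory bulb and blood lists passed the full threshold. Their median log2 fold changes were 0.22, -0.12, 0.26, -0.03, -1.81, 0.10 and -0.03.

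Proteins that S100A10 works with were examined next, with the plasminogen activators and annexin A2 among them. Of 9 listed genes 8 were tested, 1 rose and 0 fell, with a median log2 fold change of 0.26. The one that rose was Plau, which encodes urokinase, the protease that activates plasminogen. It was at 14.9 and 8.26 CPM in the PTS + RS libraries and at 2.81 and 2.02 CPM in the RS libraries, with a log2 fold change of 2.25 (SE 0.339, adjusted p = 0.016, edgeR). Anxa2, the direct partner of S100A10, was at 27.6 and 14.4 CPM against 11.6 and 8.27 CPM. Its groups did not overlap, but with a log2 fold change of 1.08 (SE 0.315, adjusted p = 0.13, edgeR) it did not pass.

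The partners of the other S100 proteins number 16, and all were tested. None passed in either direction, and 8 had a higher and 8 a lower fitted level, with a median log2 fold change of 0.03. Anxa1, the partner of S100A11, was at 3.56 and 1.74 CPM in the PTS + RS libraries and at 2.81 and 1.39 CPM in the RS libraries. The groups overlapped, and the log2 fold change was 0.32 (SE 0.468, adjusted p = 0.78, edgeR).

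Among 8 genes of receptors described for secreted S100 proteins, with co-receptors and the adaptor Myd88, 3 rose and none fell past the threshold. The median log2 fold change was 1.62, with 6 higher and 2 lower fitted levels. The lower ones were Bsg (-0.14) and Ly96 (-0.09). Bsg had the highest level of the list, at 419 and 372 CPM in the PTS + RS libraries against 408 and 463 CPM in the RS libraries. Cd33, a sialic acid receptor of myeloid cells, was at 38.2 and 27.8 CPM against 10.2 and 8.71 CPM (log2 fold change 1.80, adjusted p = 0.004, edgeR). Cd14, the co-receptor of TLR4, was at 7.53 and 5.80 CPM against 1.82 and 1.51 CPM (1.99, adjusted p = 0.010, edgeR). Cd36, a scavenger receptor, was at 3.56 and 4.25 CPM against 1.10 and 1.01 CPM (1.88, adjusted p = 0.022, edgeR). These 3 are myeloid or scavenger receptors with ligands beyond S100 proteins. Ager, which encodes RAGE, was at 0.992 and 1.32 CPM against 0.441 and 0.189 CPM and did not pass (1.82, SE 0.559, adjusted p = 0.15, edgeR). Tlr4 was at 3.91 and 2.93 CPM against 0.883 and 1.64 CPM and did not pass either (1.45, SE 0.382, adjusted p = 0.10, edgeR). The RS libraries held 8 and 3 counts of Ager.

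The second comparison asks what RGFP109 changes in PTS + RS mice. No member passed the threshold in either direction among 8 tested, and neither did any of the 17565 tested genes (0% upward and 0% downward). At an unadjusted p under 0.05 there were 0 members, against 0.501% of tested genes upward and 0.672% downward. Replicates spread more here than in the first experiment, with a common biological coefficient of variation of 32.1% against 11.4%. The main fit had no term for the tissue label, so any difference between the labelled tissues counts as replicate spread. Fitted levels were lower with RGFP109 for 7 of the 8 members, with a median log2 fold change of -0.22 against -0.016 over all genes. The groups did not overlap for 3 of the 8, S100a1, S100a10 and S100a13, all 3 lower, as were 13.8% of all tested genes, while 12.8% were separated upward. In this design of 2 against 2 libraries from unlike tissues, no difference of any size passed. Small and large differences of an S100 gene may both have gone undetected. The SE of the 8 log2 fold changes ran from 0.166 to 1.28.

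**Figure D3:**
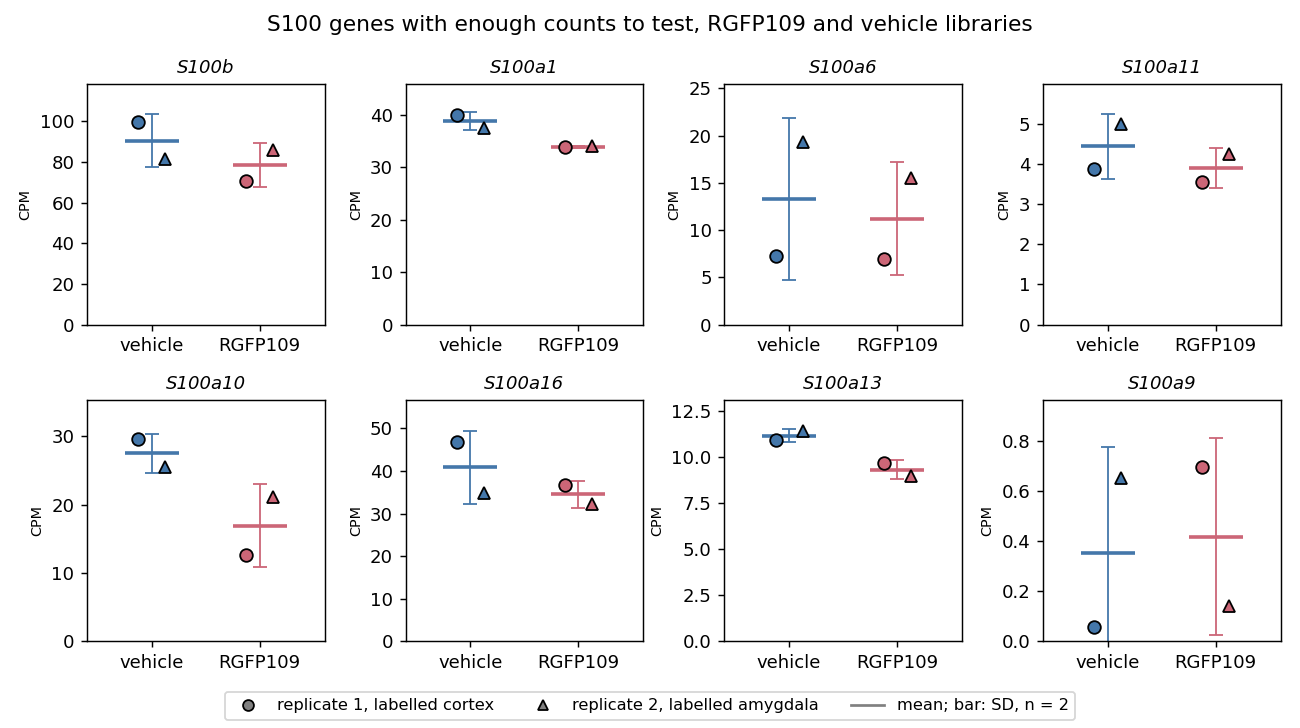
Level of each tested S100 gene in CPM (vertical axis, from 0) in the vehicle and RGFP109 libraries, with circles for replicate 1 (labelled cortex) and triangles for replicate 2 (labelled amygdala), the mean as a line and the SD (n = 2) as a bar, cut at 0. For S100a6 both triangles lie above both circles, while for S100a10 both RGFP109 points lie below both vehicle points.

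S100a10 had the largest difference. It was at 12.6 CPM in RGFP109 replicate 1 and 21.2 CPM in replicate 2, against 29.5 and 25.4 CPM in the vehicle libraries. The log2 fold change was -0.70 (SE 0.305, adjusted p = 1.00, edgeR), and -0.59 without vehicle replicate 1, the library high in olfactory bulb genes. Its size rested on the RGFP109 libraries, at -0.37 without replicate 1 and -1.12 without replicate 2. Within the cortex-labelled pair the log2 ratio was -1.22 and within the amygdala-labelled pair -0.26.

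S100b was at 70.7 and 86.0 CPM with RGFP109 and at 99.7 and 81.2 CPM with vehicle, in the order replicate 1 and 2. The groups overlapped, with a log2 fold change of -0.21 (SE 0.200, adjusted p = 1.00, edgeR) that was -0.058 without vehicle replicate 1. S100a1 was at 33.8 and 34.1 CPM against 40.0 and 37.6 CPM (log2 fold change -0.19, SE 0.166). S100a13 was at 9.70 and 8.97 CPM against 10.9 and 11.4 CPM (-0.26, SE 0.228). Neither S100a1 nor S100a13 overlapped between the groups, and neither passed the test. S100a16 was at 36.8 and 32.2 CPM against 46.9 and 34.8 CPM, and its log2 fold change went from -0.24 to -0.020 without vehicle replicate 1.

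The members that rose past the threshold in the first comparison overlapped between the drug groups. S100a11 was at 3.55 and 4.25 CPM with RGFP109 and at 3.87 and 5.00 CPM with vehicle (log2 fold change -0.18, SE 0.341). S100a6 was at 6.98 and 15.5 CPM with RGFP109 and at 7.22 and 19.3 CPM with vehicle (-0.24, SE 0.612). Its levels followed the tissue label in place of the drug, with both amygdala-labelled libraries above both cortex-labelled ones, and within the labels the log2 ratios of RGFP109 to vehicle were -0.05 and -0.32.

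A comparison by tissue label was added after this was seen, so its value for S100a6 is a description of the pattern that prompted it. With treatment in the model, S100a6 was 2.43-fold higher in the amygdala-labelled libraries (log2 fold change 1.28, SE 0.249, adjusted p = 0.37, edgeR), which did not pass. Over all genes 0% passed in either direction, and 6.09% were higher and 3.06% lower at an unadjusted p under 0.05. The other 7 tested members had log2 fold changes from -0.31 to 0.32 between the labels. The same 2 libraries had the higher striatal sums and higher blood sums, the latter at 127 and 438 CPM over 5 blood genes against 1.65 and 12.9 CPM. Gpnmb, of the macrophage and monocyte list, was at 44.7 and 150 CPM there against 5.33 and 13.6 CPM. Their part in the S100a6 level was not tested, and the tissue label and replicate number cannot be told apart.

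The low members stayed low. S100a9 had 11 and 3 counts with RGFP109 and 1 and 12 with vehicle, with a log2 fold change of 0.17 (SE 1.28, adjusted p = 1.00, edgeR), and its direction turned with the library left out. S100a8, which was not tested, had 3 and 8 counts against 7 and 18. S100a4 had 1 and 1 counts against 0 and 1. At these counts a difference was not detectable.

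Partners and receptors did not pass in this comparison either, with 0 genes in each direction in all 3 lists and median log2 fold changes of -0.03 for the S100A10 partners, 0.00 for the other partners and -0.17 for the receptor list. Plau was at 3.87 and 3.79 CPM with RGFP109 and at 1.42 and 6.36 CPM with vehicle. Anxa2 was at 11.9 and 16.9 CPM against 12.2 and 22.0 CPM, with the amygdala-labelled library the higher of each pair, as for S100a6. No gene of a cell type list passed. The summed microglia level was 416 and 604 CPM with RGFP109 against 330 and 672 CPM with vehicle, and that of macrophages and monocytes was 79.4 and 153 CPM against 91.1 and 321 CPM, so that in both lists replicate 2 was higher in each group.

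**Figure D4:**
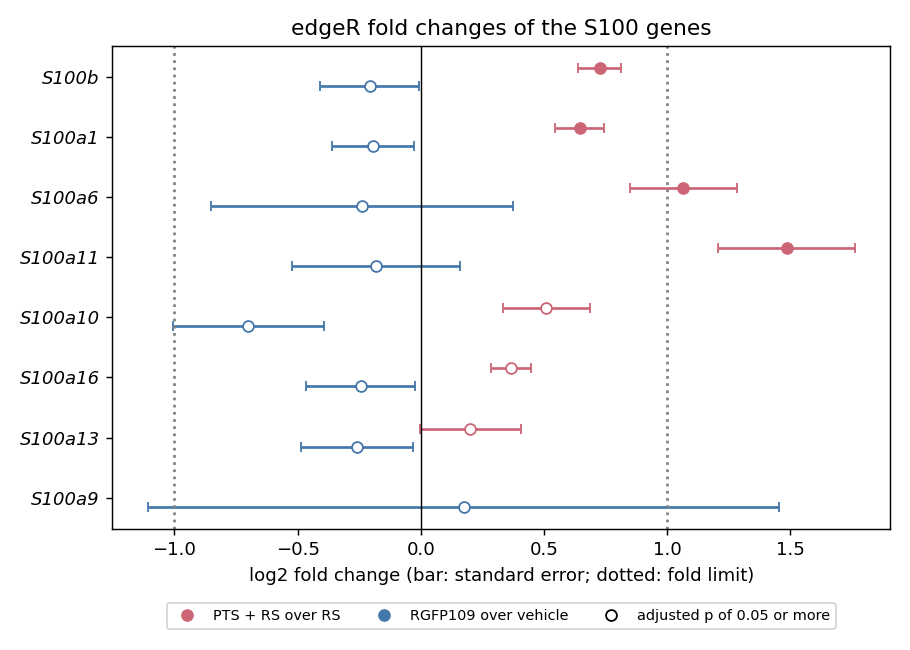
Log2 fold change of each tested S100 gene (horizontal axis) with its standard error as a bar, PTS + RS over RS in red and RGFP109 over vehicle in blue. Filled points have an adjusted p under 0.05 (S100b, S100a1, S100a6 and S100a11, all in red) and dotted lines mark the fold limit of 1.

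Across the 8 libraries some members varied together and others did not. These correlations are over log2 CPM of 8 libraries that share their groups and tissue, so they describe these libraries alone. S100a1 went with S100a11 (Pearson r = 0.93) and S100b (0.91), and S100a6 with S100a11 (0.77). S100a16 stood apart, with r of 0.06 to S100b and -0.44 to S100a10. Over 16938 genes, those most like S100a6 were Plaur (0.98), the urokinase receptor, Serpinb6b (0.98) and H2-T23 (0.97). Those most like S100a11 were Cmklr1 (0.98), the chemerin receptor, Ggta1 (0.98) and Gsdmd (0.97), which encodes gasdermin D.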

How the data were processed

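Paired-end reads were aligned by the authors to GRCm38 with STAR 2.4.0 and counted per gene with HTSeq 0.6.1. The deposited counts are raw, and the deposited FPKM values equal the count over gene length and 1 factor per library. The strand setting is not given in the sources used here, and kit names differ between the labels and the study's methods. The deposited fold changes, p-values and 8 per-library columns without a label were not used. Library totals were 15902013 to 21712033 counts.

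Counts of all genes were tested with edgeR 4.0.16 (R 4.3.3; quasi-likelihood test, TMM, filterByExpr with a minimum count of 10, Benjamini-Hochberg over all tested genes). The threshold was an adjusted p under 0.05 and an absolute log2 fold change of at least 1. CPM are on TMM library sizes, with a prior count of 2 for log2 ratios within pairs. The steps were tested on simulated data. DESeq2 1.42.0, limma 3.58.1 (voom), RLE factors, no filter, a replicate block and leaving out each library were alternatives. All 10 members are named, with partner, receptor and cell type genes by list. Some marker genes are counted in their list and not reported here by name. Members and lists were chosen with earlier results of these data known. Promoters are from RefSeq (GRCm38.p6).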

Additional observations from a re-analysis of the deposited data

Results flagged for a closer look

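In the comparison of RGFP109 with vehicle, 2 S100 genes had log2 ratios of opposite sign within the cortex-labelled and the amygdala-labelled pair. The log2 ratio of S100a9, the calprotectin subunit, was 2.28 (2.279) in the cortex-labelled pair, from 11 and 1 counts, and -1.61 in the amygdala-labelled pair, from 3 and 12 counts. That of S100b was -0.50 (-0.496) in the cortex-labelled pair, where vehicle replicate 1 is high in olfactory bulb genes, and 0.08 (0.082) in the amygdala-labelled pair. Each pair is 1 library against 1, so the difference between the pairs was not tested.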

How the results depend on the processing

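In PTS + RS against RS, the 2 S100 genes past the threshold were 2 with DESeq2, RLE factors, no filter and the replicate block, 0 with limma-voom, and 0 to 2 with 1 library left out (1 without PTS + RS replicate 1 or RS replicate 1, 0 without RS replicate 2). The 4 past the adjusted p alone became 2 with limma-voom and 1 to 6 with 1 library left out, 1 of them without RS replicate 2. No member passed the threshold downward in any run. In RGFP109 against vehicle, 0 members passed in any run. The log2 fold change changed sign for S100a13 in the first comparison (-0.065 without PTS + RS replicate 2, 0.42 without PTS + RS replicate 1). In the second it did so for S100a6 (0.22 without RGFP109 replicate 1, 0.65 without vehicle replicate 2, range -0.93 to 0.65), S100a11 (-0.36 to 0.025, the highest without vehicle replicate 2) and S100a9 (-1.31 without RGFP109 replicate 1, -0.69 without vehicle replicate 1, range -1.31 to 2.70), and the cause was not tested. Of the single-gene values under alternatives, 123 kept their direction and their side of the full threshold, 6 lost the call and 6 changed sign. Only S100a6 and S100a11 in the first comparison had a call to lose, and all 6 losses were theirs. For the other genes a value that crossed the adjusted p alone was counted as kept, so the 123 do not measure how steady their tests were.

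Replicate numbers did not pair the libraries of the first experiment (correlation of replicate differences 0.035). The replicate block left S100a6 at a log2 fold change of 1.08 (adjusted p = 0.013) and S100a11 at 1.47 (adjusted p = 0.022). In the second experiment (0.299) the number is also the tissue label, and the block left S100a6 at -0.19 (standard error 0.246) and S100a10 at -0.74. Over all genes the first comparison gave 373 higher and 16 lower, 604 and 155 with no filter, 406 and 35 with DESeq2, 443 and 32 with the block, 315 and 11 with limma-voom, and 308 to 626 and 15 to 192 with 1 library left out. The second gave 0 and 0 with every tool. Some genes passed without vehicle replicate 2, but that fit had vehicle replicate 1, the library high in olfactory bulb genes, as its only vehicle library. The part of the drug in them was not tested. The tissue-label value of S100a6, added after the data were seen, was 1.29 with RLE factors, no filter or no treatment term (adjusted p = 0.070 to 0.37). Depth limits S100a4, S100a8 and S100a9, whose counts near 0 allow no fold in the first comparison. In the second, S100a9 alone among them was tested, with a standard error of 1.28.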

Other observations

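Other S100 genes were counted too, and none had enough counts in enough libraries to be tested. S100a5, a member known from olfactory sensory neurons, had 1131 counts (147 FPKM) in vehicle replicate 1 and 0 in the other 7 libraries. Omp, the marker of those neurons, had 2040 counts in the same library and 3 to 8 elsewhere. S100a3 had 13 and 9 counts in the PTS + RS libraries against 3 and 3 in the RS libraries, and 9 and 14 with RGFP109 against 4 and 3 with vehicle. It shares 2.5% of its exonic bases with Gm42674. S100a7a had 18 and 3 counts against 7 and 6, and 5 and 12 against 3 and 13. S100a2, S100a14 and S100z had at most 4 counts in a library.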
